A study of Sus scrofa with 6 samples.

Results

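Calmodulin, calcineurin and phospholipase C form a signalling chain that reads calcium inside cells, and 49 of its genes were followed in the endometrium, the inner lining of the uterus, of pregnant sows. The genes were listed by name, with earlier results of these data known, as calmodulin and its kinases, calcineurin and the NFAT factors, protein kinase C (PKC) and phospholipase C (PLC), and receptors coupled to the G protein Gq. Of the 49, 46 were matched to a row of the 14262 in the deposited table: 13 of 13 genes of calmodulin and its kinases, 9 of 10 of calcineurin and NFAT, 12 of 12 of PKC and PLC and 12 of 14 receptors. PPP3CC, ADRA1A and BDKRB1 matched no row and are not analysed here.

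The samples were endometrium of 6 Erhualian sows, a Chinese pig breed, on day 12 of gestation, 3 of them labelled high prolific and 3 low prolific. They are named high 1 to high 3 and low 1 to low 3 after their labels. Parity, the number of litters a sow has borne, was 5 in high 1, 8 in high 2 and high 3, 7 in low 1 and low 2, and 5 in low 3. The labels do not state the litter size that set the groups apart, nor the calcium concentration of each sow, which the title of the series sets beside litter size.

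When a hormone or transmitter binds a Gq-coupled receptor, PLC splits a membrane lipid into inositol trisphosphate, which releases calcium from stores, and diacylglycerol, which with calcium activates PKC. Calcium binds calmodulin, which switches on a family of protein kinases and the phosphatase calcineurin. Calcineurin removes phosphate from NFAT transcription factors, which then enter the nucleus. In the uterus this chain is known for contraction of smooth muscle in response to oxytocin, endothelin and acetylcholine, for vessel tone, and for the release of prostaglandin from the lining.

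All values are normalized read counts as deposited, on a linear scale and not corrected for gene length, so levels are compared between sows and not between genes. The columns summed to between 22663087 and 24270245, sums that the normalization sets, so sequencing depth is unknown and counting error is not given. The first principal component of the whole table, with 43.6% of the variance, set low 2 and low 3 (0.53 and 0.54) apart from the other 4 sows (-0.50 to -0.02). Stromal markers (9 of 9 measured) summed to 487258 to 669795 in high and 584663 to 793172 in low prolific sows, and epithelial markers (9 of 10) to 71932 to 75327 and 59747 to 84464. Markers of the stroma and epithelium that define endometrium were thus present in each of the 6 libraries. In tissue samples, fewer cells of a type and less RNA per cell cannot be told apart.

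No gene of the chain passed the test between high and low prolific sows. In limma's moderated test on log2(value + 1), adjusted by the Benjamini-Hochberg method over all 14262 genes, 0 of the 46 were called, against 0 genes (0%) in the whole table, and the smallest adjusted p of the 46 was 0.619. At an unadjusted p under 0.05 stood 4 of the 46, MYLK, EDNRA, CHRM2 and PRKCA, each lower in high prolific sows, and 0 were higher. Among all genes 4.09% were lower and 3.83% higher at that limit. The groups did not overlap in 6 of the 46, which were MYLK, PRKCA, PLCB3, EDNRA and CHRM2 on the lower side and PPP3CB on the higher side. Of all genes 6.32% lay apart on the lower and 7.18% on the higher side, so the 13.0% of the 46 was near the 13.5% of the table. The median log2 fold change, high minus low, was -0.13 over the 46 and -0.0024 over all genes, with 28 of the 46 below 0. The median standard error of the 46 was 0.24, larger than their median absolute change of 0.19.

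**Figure D1:**
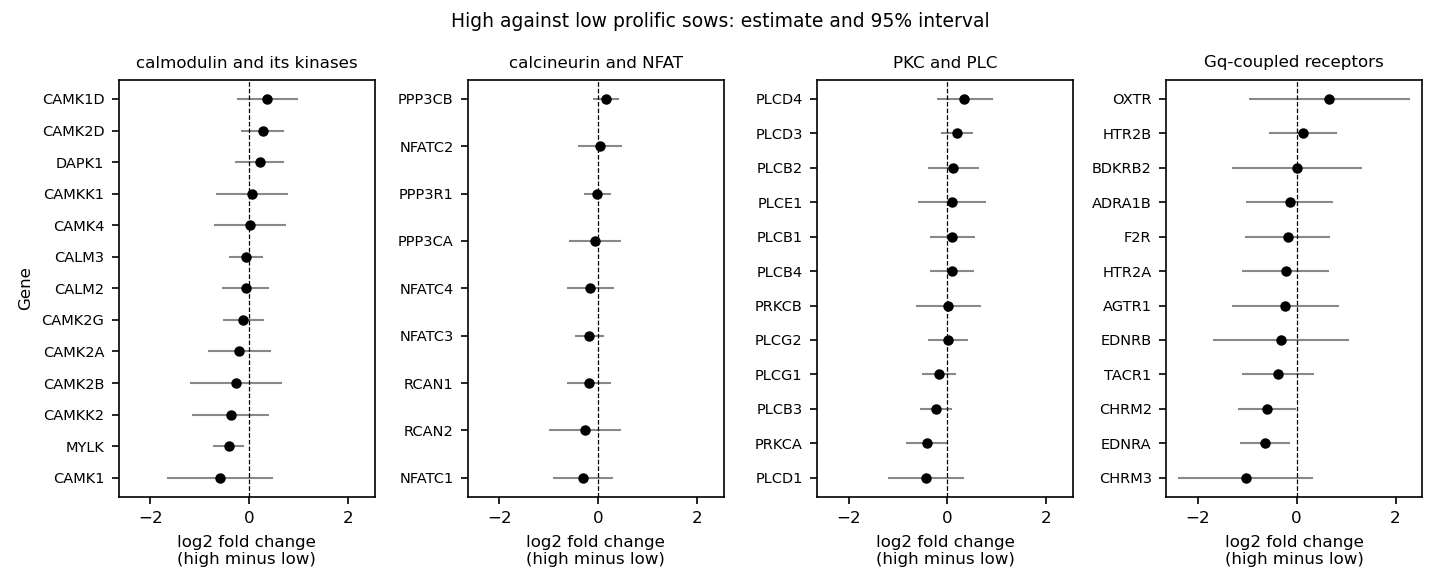
Log2 fold change of each of the 46 genes (x axis, high minus low prolific sows, on log2(value + 1)), by role. Points are estimates from 3 against 3 sows and lines are 95% intervals. The intervals of MYLK, PRKCA, EDNRA and CHRM2 lie below 0, and those of the other 42 include 0.

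Calmodulin is encoded by several genes that specify the same protein. CALM2 was at 8720, 9568 and 12914 in high 1 to high 3 and at 11477, 12196 and 8943 in low 1 to low 3. The groups lay over each other, and the lowest values were those of high 1 and low 3. Its log2 fold change was -0.072 ± 0.20 (SE, n = 3 per group) with a 95% interval from -0.55 to 0.40. CALM3 was at 4429, 3919 and 3171 in high and 3726, 4050 and 4157 in low prolific sows, a log2 fold change of -0.063 with an interval from -0.41 to 0.28. Reads that fit more than one calmodulin gene or a pseudogene copy may have been shared out or lost when they were counted, so the values of single calmodulin genes are uncertain.

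MYLK, the calmodulin-dependent kinase that phosphorylates myosin light chain and starts contraction of smooth muscle, had the smallest unadjusted p of the 46. It was at 4160, 3232 and 3181 in high 1 to high 3 and at 4690, 4618 and 4649 in low 1 to low 3. The 3 low prolific sows lay within a narrow band, and all 3 high prolific sows lay below it. The mean was 3524 ± 551 against 4652 ± 36.1 (SD, n = 3), a 1.33-fold difference (log2 fold change -0.41 ± 0.13, SE; limma adjusted p = 0.619). Without any single sow it stayed between -0.54 and -0.34. Of 12 listed smooth muscle markers 10 were measured, none at 0 in any sow, and 8 had the lower mean log2 level in high prolific sows. Their sum overlapped between the groups, at 25537 to 33012 in high and 24374 to 34027 in low prolific sows. Without MYH11, a choice made after the values were seen, the other 9 summed to 15542, 11113 and 13911 in high and to 16971, 20663 and 16707 in low prolific sows, with no overlap. Among these 9 the mean of ACTA2 differed most in counts, at 4131 against 7997, so that sum rests largely on 1 gene. In 4 of the 10 markers, ACTA2, ACTG2, DES and CNN1, each high prolific sow lay below each low prolific sow. Of all genes 6.32% lay apart on that side. ACTA2, a contractile actin, was at 4881, 2732 and 4779 against 6676, 10018 and 7297, and ACTG2, another, at 476, 118 and 317 against 727, 1882 and 947 (limma adjusted p = 0.619 for both). DES, desmin, was at 473, 111 and 409 against 506, 646 and 660, and CNN1, calponin, at 806, 325 and 758 against 823, 1296 and 919. MYH11, smooth muscle myosin, and SYNPO2 went the other way, with log2 fold changes of 0.33 and 0.46, and both overlapped between the groups. MYH11 was at 13483, 21899 and 11627 against 16882, 13364 and 7666, and SYNPO2 at 4719, 4438 and 3802 against 4569, 2789 and 2406. LMOD1, SMTN, KCNMB1 and MYOCD overlapped too, with log2 fold changes of -0.26, -0.062, -0.013 and -0.10. For KCNMB1 the mean was higher in high prolific sows (33.2 against 32.8) although the log2 value lay below 0. The part of these markers in the MYLK difference was not tested.

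The multifunctional calmodulin kinases II showed no shift past the test. CAMK2D, an isoform found in most tissues, was at 720, 633 and 764 against 616, 456 and 693, so that only low 1 and low 2 lay below each high prolific sow (log2 fold change 0.28 ± 0.18, SE). CAMK2G, likewise found in most tissues, was at 767 ± 67.0 against 846 ± 179 (SD, n = 3). CAMK2A and CAMK2B, best known from neurons, were low in each sow, from 28.6 to 44.7 and from 13.6 to 29.5. Their log2 fold changes of -0.20 and -0.26 had 95% intervals from -0.84 to 0.44 and from -1.19 to 0.66. CAMK4, a kinase of lymphocytes and neurons, was at 72.8, 121 and 76.2 against 113, 67.2 and 84.2, and its mean was 90.0 against 88.3. The T and NK cell markers (7 of 9 measured, none at 0) summed to 715, 1119 and 886 against 707, 691 and 687. Both were highest in high 2, but the next highest sow was low 1 for CAMK4 and high 3 for the markers. The part of these cells in CAMK4 was not tested.

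CAMK1 and CAMKK2, a kinase and a kinase known to activate it, were high in the same single sow. CAMK1, calmodulin kinase I, was at 377, 326 and 423 in high and at 415, 1179 and 369 in low prolific sows. CAMKK2, which phosphorylates CAMK1, CAMK4 and the energy sensor AMPK, was at 910, 722 and 880 in high and at 840, 1819 and 823 in low prolific sows. In both genes low 2 alone was high, and the other 5 sows lay within 326 to 423 and within 722 to 910. The log2 fold changes of -0.60 and -0.37 rested on that sow, since without low 2 they were -0.068 and 0.0027. CAMKK1, the other activating kinase, did not share the peak and was at 213 in low 2, within its range of 156 to 291. CAMK1D, a relative of CAMK1, was at 471, 594 and 502 against 577, 296 and 388, with its lowest value in low 2 (log2 fold change 0.36 ± 0.25, SE).

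DAPK1, a calmodulin-regulated kinase of cell death and autophagy, was at 2210, 2097 and 1947 against 1474, 1611 and 2463. High prolific sows lay close together (2085 ± 132) while low prolific sows spread from the lowest to the highest value (1849 ± 535; SD, n = 3). Over the 13 genes of calmodulin and its kinases, 5 lay higher and 8 lower, with a median log2 fold change of -0.072.

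Calcineurin consists of a catalytic A subunit, encoded by PPP3CA, PPP3CB or PPP3CC, and the calcium-binding B subunit PPP3R1. PPP3R1 had the lowest ratio of highest to lowest sow of the 46, at 1.21. It was at 2228, 1967 and 2221 in high and 2190, 1967 and 2382 in low prolific sows, a log2 fold change of -0.025 with a 95% interval from -0.30 to 0.25. PPP3CB was at 1656, 1775 and 1730 against 1655, 1388 and 1613. The groups lay apart, but high 1 and low 1 differed by about 1 normalized count, and the log2 fold change of 0.15 ± 0.11 (SE) was 0.074 without low 2. PPP3CA was at 3633, 2567 and 2339 against 2508, 2751 and 3657. Here high 1 and low 3, the sows of parity 5, were the high ones in their groups, and the group means differed little (2847 ± 691 against 2972 ± 605; SD, n = 3).

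RCAN1, a calcineurin inhibitor whose own gene is a known NFAT target, was at 1288, 1098 and 1332 in high and at 1205, 1826 and 1274 in low prolific sows. NFATC1, a calcineurin-dependent factor that also drives its own gene, was at 1045, 1250 and 867 against 987, 1793 and 1220. In both genes low 2 was the highest sow, as in CAMK1 and CAMKK2, and the rest of the groups overlapped. The log2 fold changes, -0.19 ± 0.18 and -0.31 ± 0.25 (SE), had intervals that included 0. NFATC3 was at 822, 847 and 895 against 885, 1118 and 928, again highest in low 2 (log2 fold change -0.19 ± 0.12, SE). Low 2 was the highest sow for 8 of the 46 genes, 17.4%, against 21.0% of all genes. NFATC2, the form best known from T cells, was at 198, 199 and 232 against 178, 192 and 249, with means of 209 and 207. NFATC4 and RCAN2, a relative of RCAN1, were highest in low 3, at 954 against 590 to 673 in the other sows and at 257 against 121 to 146. Of the 9 genes of calcineurin and NFAT, 2 lay higher and 7 lower, with a median of -0.16 that turned to 0.055 without low 3 and to 0.079 without both low 2 and low 3.

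**Figure D2:**
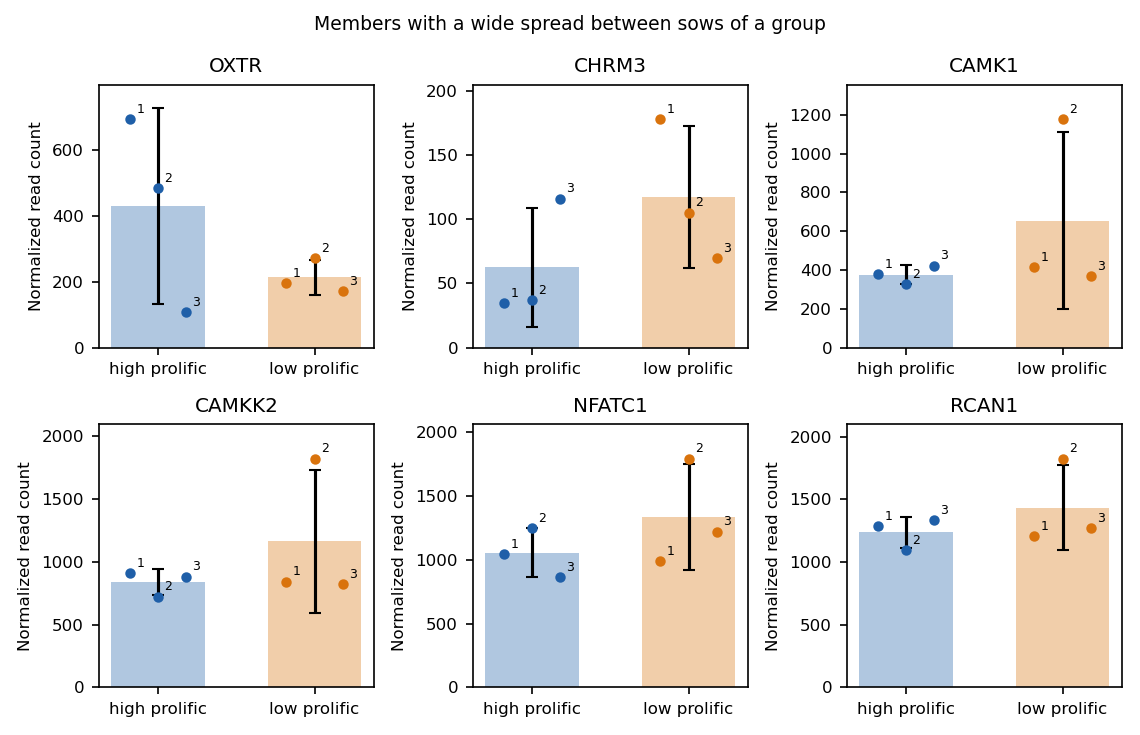
Levels as normalized read counts, on linear axes that start at 0, of OXTR, CHRM3, CAMK1, CAMKK2, NFATC1 and RCAN1. Each bar is the mean of a group of 3 sows with its SD, and each point is 1 sow with its label number. CAMK1, CAMKK2, NFATC1 and RCAN1 are each highest in low 2 (1179, 1819, 1793 and 1826), and OXTR spans 108 to 693 within the high prolific sows.

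Of the protein kinases C activated by both calcium and diacylglycerol, PRKCA lay lower in high prolific sows and PRKCB did not. PRKCA was at 463, 347 and 485 in high and 564, 642 and 511 in low prolific sows. The groups did not overlap, with 485 in high 3 next to 511 in low 3. The log2 fold change was -0.42 ± 0.17 (SE; limma adjusted p = 0.629) and went to -0.27 without high 2. PRKCB, a form of B cells and myeloid cells, was at 185, 242 and 148 against 169, 153 and 249, with a 95% interval from -0.63 to 0.67. That these 2 genes differed in their response was not tested.

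Phospholipases C of the beta class are the direct targets of Gq. PLCB3 was at 968, 987 and 937 against 1004, 1348 and 1073. The groups lay apart, but by a narrow gap between 987 in high 2 and 1004 in low 1, and the log2 fold change of -0.23 ± 0.13 (SE) was -0.11 without low 2 and -0.058 with low 3 left out as well. PLCB1 was at 2170, 2320 and 2314 against 1986, 1710 and 2811, so the high prolific sows lay inside the range of the low prolific ones. PLCB4, the neighbour of PLCB1 among the protein-coding genes of the RefSeq annotation of Sscrofa11.1, was at 955, 1332 and 1196 against 1287, 1103 and 886. The neighbours did not vary alike: low 3 was the highest sow for PLCB1 and the lowest for PLCB4. PLCB2, the form of blood cells, was at 173 in high 2 and between 114 and 134 in the others.

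The gamma class is activated by tyrosine kinases. PLCG1 was at 2951, 2297 and 2296 against 2669, 2644 and 3181 (log2 fold change -0.18 ± 0.14, SE), and PLCG2, of B and myeloid cells, at 400 ± 22.4 against 401 ± 82.1 (SD, n = 3). The delta class is driven by calcium itself. PLCD1 was at 1120, 911 and 690 against 763, 1370 and 1645, with low 2 and low 3 above each high prolific sow and low 1 near the lowest. Its log2 fold change of -0.43 ± 0.32 (SE) turned to 0.22 without both low 2 and low 3. PLCD3 was at 1052, 1054 and 938 against 1047, 828 and 800, and PLCD4 at 105, 139 and 99.6 against 97.3, 101 and 71.8. Both had means that lay higher in high prolific sows (1015 against 892 and 114 against 90.1) with overlapping groups. PLCE1, which is regulated by small GTPases of the Ras family, ranged from 307 to 575. Of the 12 PKC and PLC genes, 8 lay higher and 4 lower, with a median of 0.054.

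Receptors varied most. The median ratio of the highest to the lowest sow was 2.57 in the 12 Gq-coupled receptors, against 1.67 for calmodulin and its kinases, 1.56 for calcineurin and NFAT, 1.58 for PKC and PLC and 1.57 over all genes. Of the receptors, ADRA1B, HTR2A and HTR2B stayed under 100 in each sow. In high prolific sows 9 of the 12 receptors lay lower and 3 higher, with a median log2 fold change of -0.22 that was -0.0069 without both low 2 and low 3.

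EDNRA, the endothelin receptor of vascular and uterine smooth muscle, was at 1287, 1303 and 861 in high 1 to high 3 and at 1577, 1613 and 2166 in low 1 to low 3. All 3 high prolific sows lay below the lowest low prolific sow. The mean was 1150 ± 251 against 1785 ± 330 (SD, n = 3), 1.56-fold lower in high prolific sows (log2 fold change -0.64 ± 0.21, SE; limma adjusted p = 0.619). With a single sow left out it lay between -0.75 and -0.45. CHRM2, a muscarinic acetylcholine receptor of smooth muscle, was at 118, 115 and 117 against 177, 131 and 239. The high prolific sows were nearly equal, and the low prolific sows spread from 131 in low 2 to 239 in low 3 (log2 fold change -0.60 ± 0.25, SE; limma adjusted p = 0.629). That value was -0.38 without low 3 and -0.81 without low 2. CHRM2 is coupled in the main to Gi rather than Gq. The pericyte and smooth muscle markers stand beside both receptors. All 7 measured pericyte markers of 7 listed lay lower in high prolific sows, and none was at 0. Their sum was 16003, 15880 and 16070 in high and 15670, 15982 and 29535 in low prolific sows. Only low 3 thus lay above the high prolific sows in that sum, while each low prolific sow did in EDNRA and CHRM2. All 7 measured endothelial markers lay lower in high prolific sows as well. Their median log2 fold change was -0.40, against -0.28 for the pericyte markers. Lower too were 3 of 3 neuron and Schwann cell, 2 of 2 erythrocyte, 8 of 10 smooth muscle, 5 of 7 macrophage and 6 of 9 stromal markers. So were 3 of 5 lymphatic endothelial, 3 of 5 neutrophil and 4 of 9 epithelial markers. Of the T and NK cell markers 1 of 7 lay lower, and 1 of 4 in both the mast cell and the B and plasma cell lists. The part of any of these markers in the EDNRA and CHRM2 differences was not tested.

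CHRM3, the Gq-coupled muscarinic receptor of smooth muscle and glands, was at 34.4, 36.8 and 116 against 178, 105 and 69.7. High 1 and high 2 were the lowest sows and high 3 lay among the low prolific ones. It had the largest fold change of the 46, 2.04-fold lower in high prolific sows (log2 fold change -1.03, 95% interval from -2.40 to 0.34). That value was -0.68 without low 1 and -1.59 without high 3. OXTR, the oxytocin receptor, was at 693, 484 and 108 in high and 196, 272 and 171 in low prolific sows. High 1 and high 2 were the highest of the 6 and high 3 was the lowest. The log2 fold change of 0.66 (95% interval from -0.97 to 2.30) was 0.13 without high 1 and 1.47 without high 3. In CHRM3 and OXTR the same sows, high 1 and high 2, thus stood at opposite ends.

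TACR1, the substance P receptor, was at 574, 340 and 588 against 893, 561 and 502, and F2R, the thrombin receptor, at 932, 1026 and 1655 against 2131, 1173 and 924. In both low 1 was the highest sow and the groups overlapped. ADRA1B, an alpha-1 adrenergic receptor, lay between 12.7 and 27.2. The serotonin receptor HTR2A lay between 21.2 and 50.4, and its relative HTR2B between 50.1 and 93.8.

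**Figure D3:**
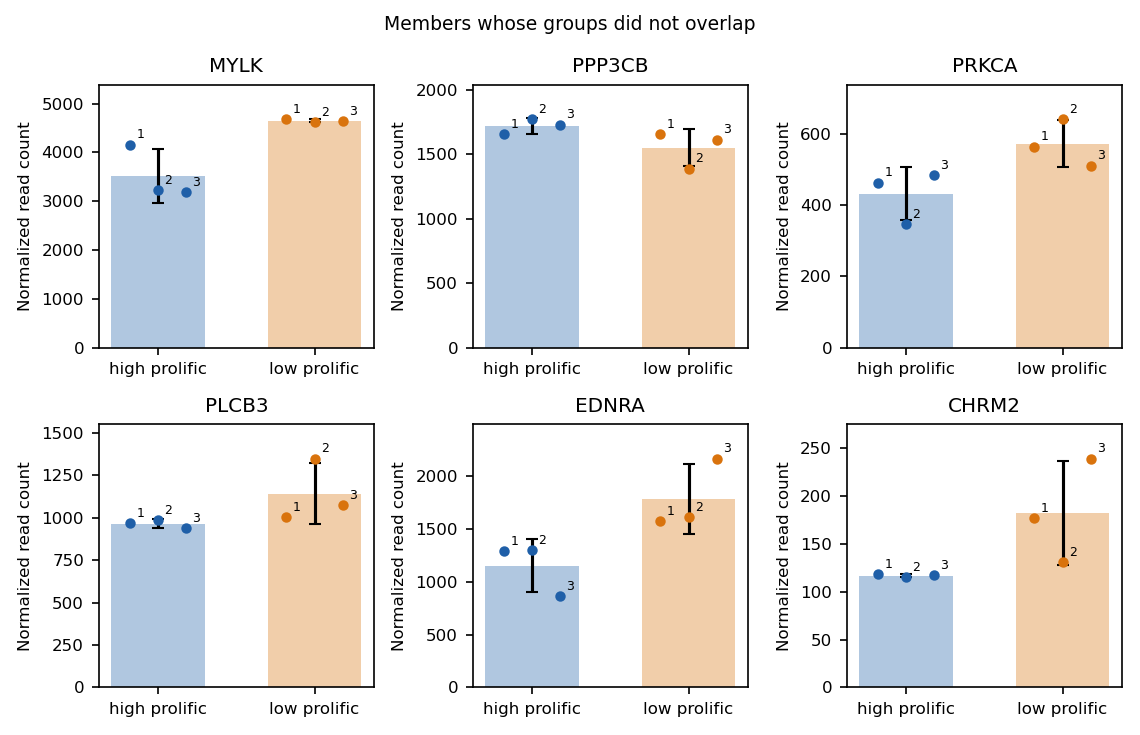
Levels as normalized read counts, on linear axes that start at 0, of the 6 genes whose groups did not overlap. Each bar is the mean of a group of 3 sows with its SD, and each point is 1 sow with its label number. MYLK (3524 against 4652), PRKCA, PLCB3, EDNRA and CHRM2 are lower and PPP3CB (1720 against 1552) is higher in high prolific sows, and none passed over all genes.

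The receptors EDNRB, AGTR1 and BDKRB2 followed another division of the sows. EDNRB, the endothelin receptor of endothelium and other cells, was at 2078, 1124 and 794 in high and 893, 1187 and 3344 in low prolific sows. AGTR1, the angiotensin receptor that raises vessel tone, was at 754, 421 and 412 against 377, 493 and 1130. BDKRB2, the constitutive bradykinin receptor, was at 766, 420 and 358 against 236, 486 and 978. In each of the 3 genes low 3 was highest and high 1 next, and these are the sows of parity 5. The mean at parity 5 was 2.71, 2.21 and 2.32 times that at parity 7 and 8. Some endothelial markers moved with them. In 3 of the 7 measured, CDH5, TEK and ERG, both sows of parity 5 lay above the other 4. The means at parity 5 were 1.71, 1.5 and 1.56 times as high. The same held in 3 of 9 stromal markers, DCN, PDGFRA and HOXA10 (1.35, 1.55 and 1.25 times). It also held in 2 of 10 smooth muscle, 1 of 5 lymphatic endothelial and 1 of 5 neutrophil markers, against 11.1% of all genes. The pericyte, macrophage and epithelial lists had 0 such markers. The part of these cells in the receptor values was not tested. Between the prolificacy groups the log2 fold changes were -0.31 for EDNRB, -0.23 for AGTR1 and 0.013 for BDKRB2. Those of EDNRB and AGTR1 turned to 0.26 and 0.24 without low 3. For BDKRB2 the mean was lower in high prolific sows (515 against 567) although the log2 value lay above 0.

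Parity was therefore put beside prolificacy in the same limma fit, a step chosen after these values were seen. Per litter of parity, the estimates in log2 units were -0.52 ± 0.12 for EDNRB, -0.41 ± 0.098 for AGTR1 and -0.46 ± 0.14 for BDKRB2 (SE; 6 sows). They were -0.20 ± 0.042 for PPP3CA and -0.12 ± 0.036 for PLCG1, and 0.16 ± 0.048 for PLCB4. None passed over all genes: the smallest adjusted p of the 46 was 0.370 (PPP3CA), and limma called 0 genes (0%) for parity. At an unadjusted p under 0.05 stood 6 of the 46, the genes just named, against 9.42% of all genes. The 2 sows of parity 5 lay above the other 4 in 10 of the 46 and below them in 3, against 11.1% and 10.6% of all genes. The 10 were EDNRB, AGTR1, BDKRB2 and ADRA1B of the receptors, PPP3CA, PPP3R1 and NFATC4, CALM3 and DAPK1, and PLCG1. The 3 were CALM2, PLCB4 and F2R. With 2 sows of parity 5, 1 in each group, parity and other properties of these sows cannot be told apart. Of the 7 endothelial markers 5 stood at an unadjusted p under 0.05 for parity, with CDH5 at -0.30 ± 0.077 per litter (SE). So did 3 of the 9 stromal markers, 1 of the 9 epithelial markers and 0 of the 7 pericyte markers. The smooth muscle (10), macrophage (7), T and NK cell (7), neutrophil (5) and mast cell (4) lists had 1 such marker each. The lymphatic endothelial, B and plasma cell, neuron and Schwann cell and erythrocyte lists had 0. With any single sow left out, or without both low 2 and low 3, the signs of the 6 parity estimates could not turn. In each of these genes both sows of parity 5 lay beyond the other 4, so the held signs add nothing. The sizes of the estimates moved. Without high 1 the estimates per litter were -0.85 for EDNRB, -0.69 for AGTR1 and -0.76 for BDKRB2, and without low 3 they were -0.38, -0.28 and -0.33.

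**Figure D4:**
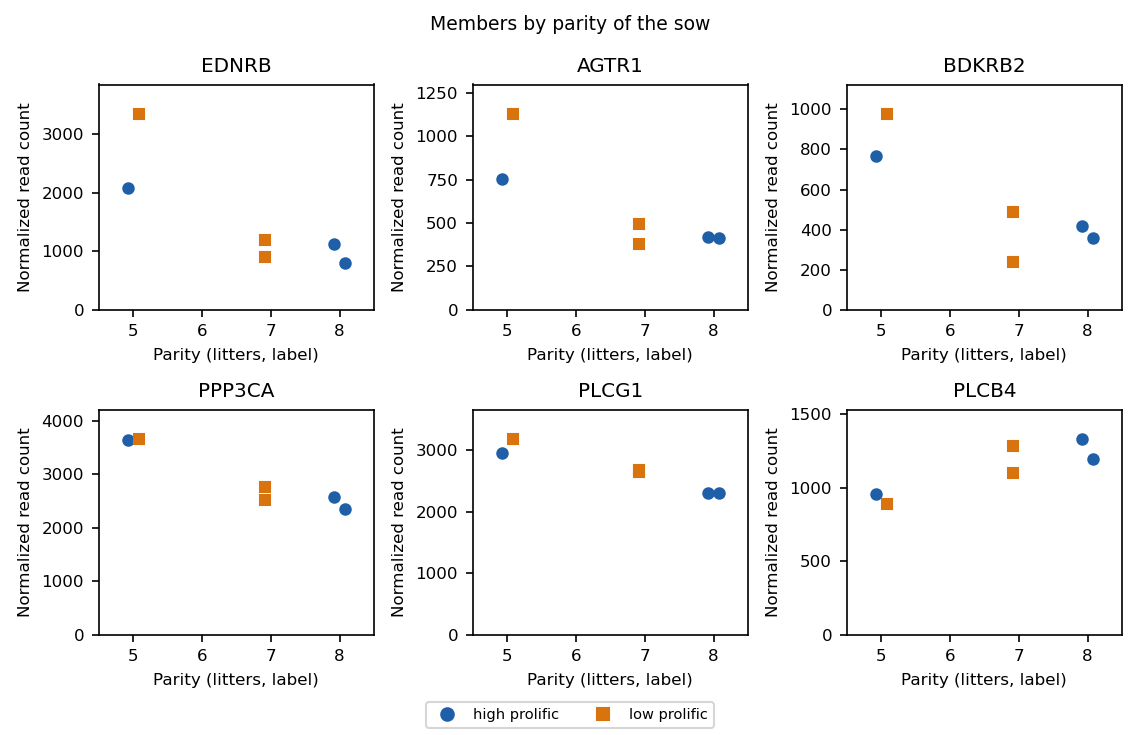
Normalized read counts (y axes, linear from 0) of 6 genes against the parity of each sow (x axis, litters, from the labels). Circles are high and squares low prolific sows, 1 point per sow, moved sideways slightly where sows share a parity. The 2 sows of parity 5 lie above the other 4 in EDNRB, AGTR1, BDKRB2, PPP3CA and PLCG1 and below them in PLCB4.

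Low 3 was the highest sow for 19 of the 46 genes, 41.3%, against 22.0% of all genes. These were 6 of the 12 receptors, 5 of 9 genes of calcineurin and NFAT, 5 of 12 of PKC and PLC and 3 of 13 of calmodulin and its kinases. The same sow was highest in 7 of 7 measured pericyte markers and in 7 of 7 measured endothelial markers (10 listed), whose sums in low 3 were 29535 and 23904. In the other sows these sums lay between 15670 and 16070 and between 10721 and 17454. High 1, the other sow of parity 5, had 16003 and 15649, and no measured marker of either list was at 0. Low 3 was also the highest sow in 5 of 7 macrophage, 4 of 5 lymphatic endothelial and 2 of 2 erythrocyte markers. It was highest in 3 of 10 smooth muscle, 2 of 9 stromal, 0 of 9 epithelial and 0 of 7 T and NK cell markers. The part of vessel cells or of these other cells in the values of low 3 was not tested. High 1 was the highest sow for 2 of the 46, CALM3 and OXTR.

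**Figure D5:**
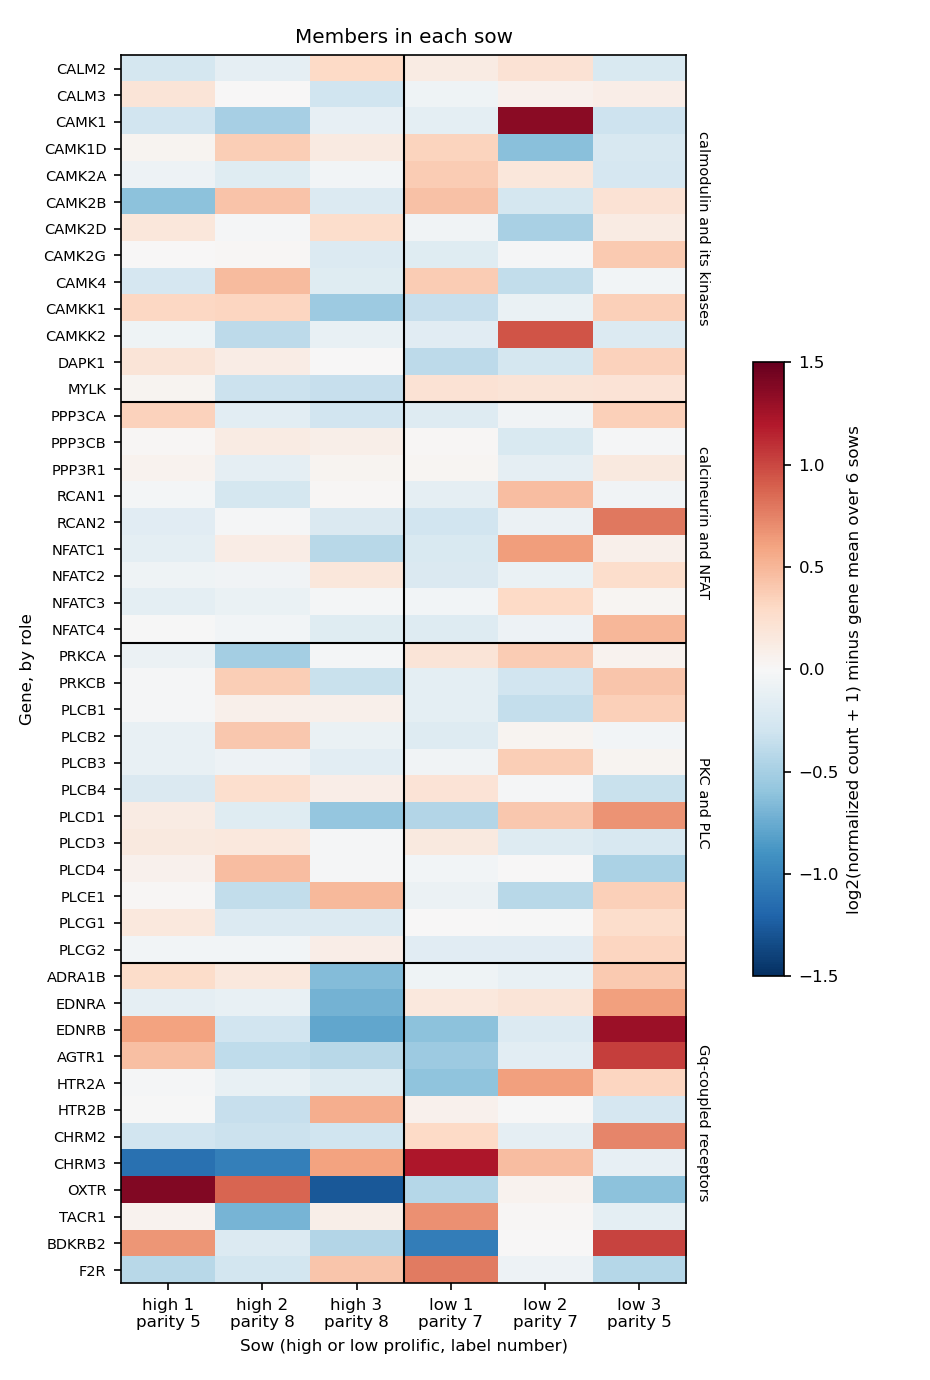
Deviation of each of the 46 genes from its own mean over the 6 sows, in log2(normalized count + 1) (colour scale, limited at 1.5 in either direction), with genes as rows by role and sows as columns. Receptors at the bottom show the strongest colours, with EDNRB, AGTR1 and BDKRB2 high in high 1 and low 3, and CAMK1 and CAMKK2 high in low 2.

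Beyond the 46, 130 further genes of the same chain were listed by name and 97 were matched. In high prolific sows 37 of these had the higher mean log2 level and 60 the lower, against 7079 and 7183 of all genes. In limma 0 passed over all genes, and 4 were higher and 2 lower at an unadjusted p under 0.05. That was 6.19% of the 97, below the 7.92% of all genes. The groups lay apart in 13.4% of them, near the 13.5% of the table. CAMK2N1, an inhibitor of calmodulin kinase II, had the smallest unadjusted p. It was at 984, 1418 and 1762 in high and 559, 780 and 601 in low prolific sows, with no overlap (log2 fold change 1.08 ± 0.24, SE; limma adjusted p = 0.619). PRKCE, a PKC that needs diacylglycerol but not calcium, was at 345, 376 and 475 against 648, 1057 and 679, also with no overlap (log2 fold change -0.97 ± 0.23, SE; limma adjusted p = 0.619).

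PTGFR, the Gq-coupled receptor of prostaglandin F, lay higher in each high prolific sow, from 727 to 775 against 259 to 473, as did PRKD3, a kinase downstream of PKC (6849 to 7509 against 5193 to 6168), and CALML4, a calmodulin-like protein (648 to 1159 against 433 to 541). RASGRP3 and RASGRP2, which link diacylglycerol to Ras and Rap, were at 628 ± 200 against 996 ± 176 and at 92.5 ± 11.3 against 151 ± 50.7 (SD, n = 3). MEF2A, a transcription factor that calcium signals regulate, was at 5061 ± 1156 against 7386 ± 2081. In limma these 6 genes had an adjusted p from 0.619 to 0.646.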

How the data were processed

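RNA of frozen endometrium of 6 sows was sequenced, 1 library per sow. The deposited table holds a normalized signal per gene and library. Per the submitters' processing notes Subread 1.6, featureCounts and edgeR were used. Their roles and settings, the normalization, build, annotation and strand setting are not given in the sources used here. Coordinates are left out for that reason. Whole reads were not recovered: a single step explained, within 0.1, between 40.6% and 100% of a library's values under 20. Symbols came from a table of Ensembl identifiers, which matched 11977 of 14262 rows.

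High and low prolific sows were compared with limma 3.58.1 (R 4.3.3) on log2(value + 1), which understates the change of low genes, with a variance trend and robust moderation, two-sided, adjusted over 14262 genes at 0.05. All genes reached 10 in 3 libraries or more, so the low-value filter dropped none. The procedure was tested on simulated data. The genes, lists and alternatives were chosen with earlier results of these data known. Values per sow were given for the 4 genes of each role with the smallest p, 12 genes fixed by name, the 6 with the widest range and those whose groups lay apart. In the further list, the 4 with the smallest p in each direction were named. Others in the text were added after their values were seen. Alternatives were left-out sows, pseudocounts, filters, scalings, parity, a replicate block, plain moderation and library weights. A result on 1 further gene is not reported here.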

Additional observations from a re-analysis of the deposited data

How the results depend on the processing

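No gene of the chain passed over all genes under any of the 17 alternatives, with the smallest adjusted p between 0.277 and 1.000, but 0 calls in a test with a median standard error of 0.24 do not show equal levels. Over the whole table the single left-out sows gave 0 to 4 calls (4 without low 1, 1 without low 2). The count of the 46 at an unadjusted p under 0.05 was 4 (8.70%, against 7.92% of all genes). It was 1 to 5 with a single sow left out (2.17% to 10.9%, against 3.28% to 13.1% of all genes), 1 without both low 2 and low 3 (2.17% against 4.43%), and 2 with median scaling or quantile normalization (4.35% against 8.06% and 8.17%). The labels number the sows 1 to 3 in each group. With this replicate block that count was 1 (2.17%), none of the 46 passed, and 615 genes (4.31%) stood at an unadjusted p under 0.05 against 1129. Sows of the same number did not deviate together (correlations of -0.378, -0.163 and -0.357 across genes, and 0 of 3 high sows closest to their own number). No pairing by number was thus seen, though with 3 sows per group this check could miss a small shared effect. Groups that did not overlap numbered 6, with 7 to 12 lacking a single sow (15.2% to 26.1%, against 17.3% to 31.3% of all genes) and 23 without both low 2 and low 3 (50% against 50.9%), shares that rise for all genes when fewer sows are compared. That last setting leaves 1 low prolific sow, assumed to vary like the rest. The medians by role, with a single sow left out, ran from -0.16 to -0.030 for calmodulin and its kinases, -0.25 to 0.055 for calcineurin and NFAT, -0.076 to 0.13 for PKC and PLC and -0.53 to -0.050 for the receptors. Without both low 2 and low 3 they were -0.15, 0.079, 0.15 and -0.0069. The count for parity was 6 (13.0%, against 9.42% of all genes), with 4 to 10 lacking a single sow (8.70% to 21.7%, against 5.31% to 12.5%); the 10, without high 2, stood against 11% of all genes.

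The sign of the log2 fold change held in 17 of the 46 and turned under at least 1 alternative in 29. None of these 29 was larger than 0.43 in size in the main fit, but some turned values were larger. The cause of the turns was not tested. Without both low 2 and low 3 these turned: AGTR1 0.43, CALM3 0.030, CAMK1D -0.15, CAMK2G 0.12, CAMK4 -0.37, EDNRB 0.46, HTR2A 0.49, HTR2B -0.0023, NFATC1 0.079, NFATC4 0.12, PLCB4 -0.16, PLCD1 0.22, PLCD3 -0.048, PPP3CA 0.16, RCAN1 0.036 and RCAN2 0.15. With parity as a covariate AGTR1 was 0.046, CAMK4 -0.045, EDNRB 0.038, PLCB4 -0.014, PPP3CA 0.066 and PPP3R1 0.0091. HTR2B was -0.018 with library weights and PPP3R1 0.0089 with median scaling. With a single sow left out the ranges that crossed 0 were ADRA1B -0.32 to 0.15, AGTR1 -0.56 to 0.24, BDKRB2 -0.50 to 0.52, CALM2 -0.24 to 0.045, CALM3 -0.17 to 0.068, CAMK2G -0.25 to 0.039, CAMK4 -0.21 to 0.22 and CAMKK1 -0.10 to 0.34. They were CAMKK2 -0.57 to 0.0027, EDNRB -0.70 to 0.26, F2R -0.44 to 0.16, HTR2A -0.58 to 0.030, HTR2B -0.12 to 0.33, NFATC2 -0.067 to 0.17, NFATC4 -0.29 to 0.055 and PLCB1 -0.060 to 0.30. The last were PLCB2 -0.049 to 0.22, PLCB4 -0.051 to 0.22, PLCE1 -0.12 to 0.31, PLCG2 -0.068 to 0.18, PPP3CA -0.26 to 0.089, PPP3R1 -0.10 to 0.041, PRKCB -0.16 to 0.23 and RCAN2 -0.48 to 0.055.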
